A study of Mus musculus with 6 samples.

Results

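Proteins of the Bcl2 family decide whether the outer membrane of a mitochondrion stays closed. Of 10 of their genes, the 9 with a probe set are described here in common myeloid progenitors (CMP) of the mouse. These cells were sorted by their content of reactive oxygen species (ROS). The genes were chosen by name, and every probe set whose platform annotation gives exactly 1 gene symbol, that of a member, was read. The rule found 29 probe sets of 9 genes, of 34945 probe sets with 1 symbol and 18193 genes. No probe set is listed for Bax in the annotation used, and Bax is not analysed here. Bone marrow from the long bones and ilia of C57BL6 mice was stained with the dye H2-DCFDA, which becomes fluorescent on oxidation, and CMP from the dim and the bright end of the staining were sorted, with 15% to 20% of all CMP in each fraction. RNA of 3 low-ROS and 3 high-ROS samples was amplified and read on 6 one-colour arrays of 45101 probe sets, to study the part of ROS in the step from CMP to megakaryocyte-erythrocyte progenitors. The labels give no further treatment, genotype or age, and do not say whether samples of 1 group came from separate mice or sorts. The p-values therefore rest on the spread between these samples alone, and that spread may be technical.

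The family has 3 kinds of members. Pro-survival proteins (Bcl2, Bcl2l1, which encodes Bcl-xL, and Mcl1) hold the effectors Bax and Bak1 in check, and effectors that escape them open pores that release cytochrome c and start the caspase cascade. BH3-only proteins (Bcl2l11, which encodes Bim, Bbc3, which encodes Puma, Pmaip1, which encodes Noxa, Bid and Bad) sense damage or the loss of growth factors and bind the pro-survival proteins, and some also activate the effectors directly. In marrow progenitors Mcl1 is known as a gene that blood stem cells and early progenitors need to survive, and Bim as a mediator of death when cytokines are withdrawn.

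The arrays had median signals between 40.4 and 42.5. The 3' over 5' signal of the Gapdh control probe sets, a ratio that reflects RNA integrity and labelling, lay between 2.54 and 3.19 on the low-ROS arrays and between 2.997 and 4.53 on the high-ROS arrays, with the highest value on high-ROS replicate 3. The 11 CMP markers, among them Kit, Cd34, Fcgr3 and Mpo, all had mean signals above 200, and 10 of them did not differ past the threshold, whereas Gata2 was lower in high-ROS CMP (adjusted p = 0.00708, limma). Markers of mature granulocytes were bright in both groups: the summed signal of 6 genes was 47250 to 50130 on low-ROS and 47230 to 48320 on high-ROS arrays. Of these genes, Ltf (5759 to 6183 against 5193 to 5717) and Ngp (7430 to 7826 against 7185 to 7340) were separate and lower in high-ROS CMP. Camp, S100a8, S100a9 and Mmp9 overlapped. Summed signals of the 3 late erythroid genes measured, 8377 to 8508 on low-ROS and 6438 to 7839 on high-ROS arrays, did not overlap. Slc4a1 alone was separate (6066 to 6161 against 4350 to 5366), while Alas2 and Epb42 overlapped. The sums of 5 B cell genes (1344 to 2048 against 1410 to 1937), 5 T cell genes (364 to 472 against 386 to 504), 3 NK cell genes (983 to 1173 against 968 to 1158), 5 macrophage genes (1980 to 2411 against 1997 to 2488), 5 stromal and endothelial genes (377 to 1236 against 608 to 940) and 4 mast cell and basophil genes (1157 to 1263 against 1067 to 1299) overlapped. The part of such other cells in the results was not tested, and in sorted bulk samples fewer cells of a type and less RNA per cell cannot be told apart.

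No member passed the threshold. At an adjusted p under 0.05 (limma, Benjamini-Hochberg over all 45037 probe sets) 0 of the 29 probe sets were higher and 0 lower in high-ROS CMP, where 0.0222% of all probe sets passed, and the smallest adjusted p of a member was 0.631. At an unadjusted p under 0.05, 4 member probe sets were higher and 3 lower, against 3.39% and 3.57% of all probe sets. The 4 were 3 probe sets of Bcl2 and 1 of Bid, and the 3 were all of Bcl2l11, so these 7 stand for 3 genes. Signals of the groups did not overlap for 10 member probe sets, 4 higher (all probe sets: 6.72%) and 6 lower (5.95%). With each gene stood for by its brightest probe set, 0 of 9 members passed, 0 were higher (all genes: 4.42%) and 1, Bcl2l11, was lower (3.34%) at an unadjusted p under 0.05. The median log2 fold change was -0.06 over the member probe sets and 0.00 over all probe sets, and -0.05 over the 9 genes against 0.02 over all genes. In simulated data of this design, a log2 change of size 1 was called for 35.3% of the altered probe sets and one of size 2 for 89.0%.

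**Figure D1:**
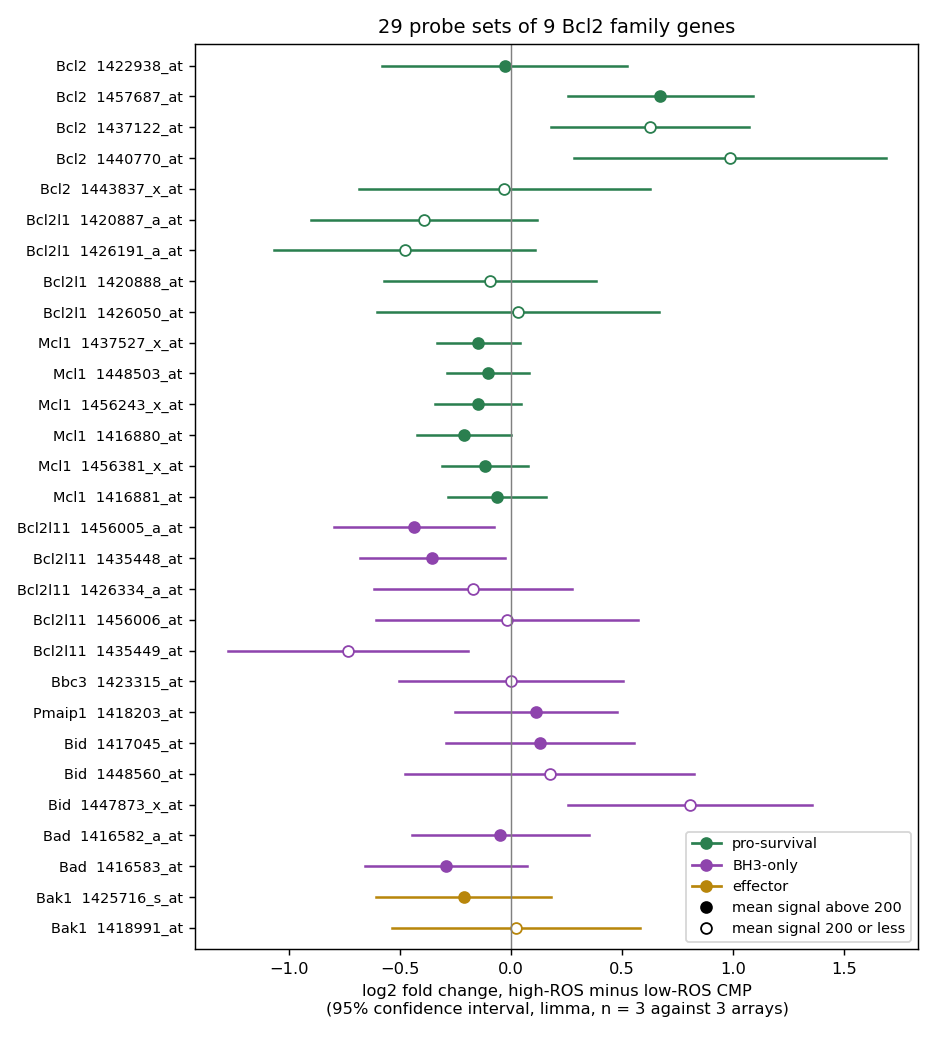
Log2 fold change (horizontal axis, high-ROS minus low-ROS CMP, on the scale of signal plus 16) of the 29 member probe sets, grouped by gene and coloured by role, with 95% confidence intervals from limma (3 against 3 arrays); open points mark a mean signal of 200 or less. On this scale 3 of 5 Bcl2 probe sets lie to the right of 0, and all 6 of Mcl1 lie slightly and all 5 of Bcl2l11 to the left. The intervals exclude 0 for 3 probe sets of Bcl2, 3 of Bcl2l11 and 1 of Bid. All other intervals span 0, those of Mcl1 among them.

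Bcl2, the founding pro-survival gene, gave different pictures on its 5 probe sets. Affymetrix probe sets can read different ends or forms of a transcript, and which part of Bcl2 each of these reads was not analysed here. The brightest, 1422938_at, had signals of 2254, 1770 and 1325 on low-ROS arrays 1, 2 and 3 and of 2074, 2167 and 1107 on high-ROS arrays 1, 2 and 3, the order in which all triplets of signals are given here. The groups overlapped almost entirely, with means of 1783 ± 465 and 1783 ± 587 (SD, n = 3 each) and a log2 fold change of -0.03 (95% confidence interval -0.58 to 0.52). Its low values were those of replicate 3 in both groups.

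Probe set 1457687_at, the second brightest, had signals of 390.0, 456 and 410 (low-ROS) and 835, 747 and 491 (high-ROS). Every high-ROS array lay above every low-ROS array, with high-ROS replicate 3 nearest to them. The means were 418 ± 33.9 and 691 ± 179 (SD, n = 3 each), a 1.59-fold difference (log2 fold change 0.67, SE 0.189, adjusted p = 0.631, limma). Probe set 1437122_at had 80.5, 114 and 94.8 in low-ROS and 166, 173 and 132 in high-ROS CMP, again without overlap (log2 fold change 0.62, SE 0.202, adjusted p = 0.689, limma). Probe set 1440770_at had 49.0, 36.9 and 37.4 in low-ROS CMP, near the median probe set, and 145, 118 and 49.7 in high-ROS CMP. Its highest low-ROS value and its lowest high-ROS value, that of replicate 3, differed by less than 1 signal unit, and the log2 fold change was 0.98 (SE 0.318, adjusted p = 0.689, limma). The dim 1443837_x_at, whose suffix marks probes that may also match other sequences, overlapped between groups (59.5 ± 26.8 and 56.5 ± 17.1; log2 fold change -0.03).

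Without high-ROS replicate 3, whose Gapdh ratio was the highest, the log2 fold changes of 1457687_at, 1437122_at and 1440770_at were 0.89, 0.73 and 1.37, with adjusted p of 0.137, 0.804 and 0.263 (limma). Without high-ROS replicate 1 they were 0.52, 0.58 and 0.72. After adjustment for the Gapdh ratio they were 0.98, 0.84 and 1.42 (SE 0.205, 0.251 and 0.393). The adjusted p were then 0.618, 0.839 and 0.839 (limma). With a pseudocount of 64 the log2 fold change of 1440770_at was 0.63. The log2 ratio of 1457687_at to the brightest Bcl2 probe set on the same array, a measure chosen after the values were seen, was -2.48, -1.92 and -1.66 on the low-ROS and -1.30, -1.52 and -1.15 on the high-ROS arrays. That ratio was higher on every high-ROS array by a mean of 0.70, as were those of 1437122_at (0.65) and 1440770_at (1.01). An exact 2-sided permutation test of 3 arrays against 3 gave p = 0.1 for each of these 3 ratios, the smallest it can give (0.1 after adjustment over the 3). The 3 probe sets were taken because their groups did not overlap on these same arrays. That choice favours the smallest p, so the test adds no support to the difference. The brightest probe set is part of all 3 ratios, so they are not independent.

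**Figure D2:**
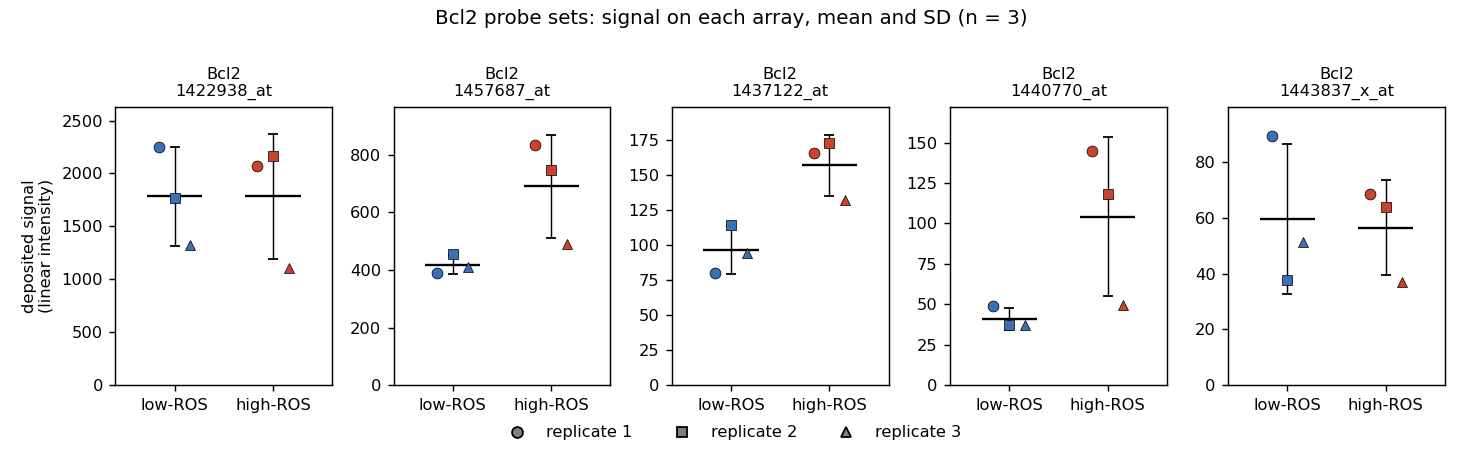
Deposited signal (vertical axis, linear intensity, from 0) of the 5 Bcl2 probe sets on each array, low-ROS in blue and high-ROS in red, with the replicate number as the marker and the mean and SD as a line and bars. The groups are separate for 1457687_at, 1437122_at and 1440770_at, where high-ROS replicate 3 is the lowest high-ROS array, and overlap for 1422938_at and 1443837_x_at.

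The sequence before the start of Bcl2 is shown for its place beside those of Mcl1 and Bcl2l11 below; the arrays read transcripts, and nothing was measured at these windows. Each window holds the 250 bases before a RefSeq transcript start (GRCm38.p6), 5' to 3' on the gene's strand. Capitals mark matches on either strand to 5 short motifs: the forkhead motif GTAAACA, the STAT motif TTCNNNGAA, the CREB/ATF core TGACGT, the GC box GGGCGG and the ETS motif CCGGAAG.
Bcl2 upstream window, chr1:106714291-106714540, strand -: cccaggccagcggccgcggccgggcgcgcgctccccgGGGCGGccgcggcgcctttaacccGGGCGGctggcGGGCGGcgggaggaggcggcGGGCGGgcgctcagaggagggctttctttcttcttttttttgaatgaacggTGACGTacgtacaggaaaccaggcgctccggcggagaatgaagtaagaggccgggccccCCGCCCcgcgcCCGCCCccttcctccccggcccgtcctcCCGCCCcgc
The Bcl2 window held 7 GC boxes and 1 TGACGT, which stands in 6.47% of the 32851 windows of all transcript starts in the table, where GGGCGG stands in 32.7%. Of the 15 windows of the 9 members looked at, Bax among them, 10 held a GC box, and Bcl2's was the 1 window with TGACGT.

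Mcl1, a short-lived pro-survival protein, had some of the brightest probe sets of the array, with mean signals at or above the 95.6th percentile of all probe sets. All 6 of its probe sets had slightly lower means in high-ROS CMP, and for 4 of them the groups did not overlap. Probe set 1416880_at had signals of 3185, 3321 and 3233 in low-ROS and 2885, 3049 and 2495 in high-ROS CMP. Each high-ROS array was below each low-ROS array, and high-ROS replicate 3 was the lowest. The means of 3246 ± 69.2 and 2810 ± 285 (SD, n = 3 each) gave a log2 fold change of -0.21 (SE 0.0967, 95% confidence interval -0.43 to 0.00, adjusted p = 0.718, limma). On the brightest, 1437527_x_at, signals were 3887, 4069 and 3864 in low-ROS and 3540, 3805 and 3333 in high-ROS CMP, also without overlap (log2 fold change -0.15, SE 0.0848).

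The other Mcl1 probe sets had log2 fold changes of -0.06 (1416881_at), -0.10 (1448503_at), -0.12 (1456381_x_at) and -0.15 (1456243_x_at), each with an interval that spanned 0. The lowest bound of the 6 intervals, on 1416880_at, was -0.43. Of the sets, 3 carry the suffix _x_at, so their probes may match other sequences or one another, and the 6 are not independent readings. Part of the difference moved with the scaling of the arrays: with quantile normalization the 6 values lay between -0.17 (1416880_at) and -0.01 (1416881_at), and with arrays scaled to 1 trimmed mean between -0.18 and -0.03 on the same 2 probe sets. With the Gapdh ratio as a covariate they lay between -0.09 (1456381_x_at) and -0.01 (1416881_at). The trimmed-mean signal was lowest, at 181, on high-ROS replicate 3, and without that array the value of 1416880_at was -0.13.
Mcl1 upstream window, chr3:95658471-95658720, strand +: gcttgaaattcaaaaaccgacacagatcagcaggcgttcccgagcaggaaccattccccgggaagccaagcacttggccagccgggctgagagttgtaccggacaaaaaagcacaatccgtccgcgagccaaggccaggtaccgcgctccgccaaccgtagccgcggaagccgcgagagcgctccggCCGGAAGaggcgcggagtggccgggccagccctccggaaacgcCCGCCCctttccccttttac
This window of Mcl1 held 1 match to the ETS motif CCGGAAG (6.91% of all windows) and 1 GC box, and no match to the STAT motif TTCNNNGAA, which stands in 7.02% of all windows and in 0 of the 15 member windows.

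Bcl2l1, the pro-survival gene that red cell precursors depend on, had 4 probe sets with means of at most 118 over the 6 arrays. The 2 brighter ones, 1420887_a_at and 1426191_a_at, had lower means in high-ROS CMP with overlapping groups. Signals of 1420887_a_at were 100.4, 170.3 and 138 in low-ROS and 97.2, 119 and 81.1 in high-ROS CMP (log2 fold change -0.39, SE 0.230, adjusted p = 0.762, limma), and those of 1426191_a_at were 97.1, 139 and 183 against 86.8, 129 and 70.3 (log2 fold change -0.48, SE 0.266, adjusted p = 0.748, limma). With the Gapdh ratio as a covariate these values were -0.07 and 0.06. Leaving out 1 array gave -0.57 (without low-ROS replicate 1) to -0.23 (without low-ROS replicate 2) for the former and -0.69 (without low-ROS replicate 1) to -0.28 (without low-ROS replicate 3) for the latter. The dimmer 1420888_at (49.0 ± 4.72 and 45.0 ± 7.68, SD, n = 3) and 1426050_at (16.9 ± 12.8 and 16.2 ± 6.56) differed by less than their spread.

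Bcl2l11, the BH3-only gene for Bim, had lower means in high-ROS CMP on all 5 probe sets. On the brightest, 1456005_a_at, signals were 1519, 1214 and 1589 in low-ROS and 1339, 966 and 903 in high-ROS CMP. High-ROS replicate 1 lay above low-ROS replicate 2, so the groups overlapped by that 1 pair. The means of 1441 ± 199 and 1069 ± 236 (SD, n = 3 each) gave a log2 fold change of -0.44 (SE 0.162, 95% confidence interval -0.80 to -0.08, adjusted p = 0.702, limma).

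Probe set 1435448_at had signals of 490.0, 435 and 497 in low-ROS and 322, 367 and 416 in high-ROS CMP. The groups did not overlap, and here high-ROS replicate 3 was the highest of its group, the reverse of its place on the brightest probe set. The log2 fold change was -0.35 (SE 0.148, adjusted p = 0.707, limma). Probe set 1435449_at also did not overlap, at 22.9, 35.9 and 25.8 against 2.98, 11.5 and 19.3, but all its values are below the median probe set (log2 fold change -0.73, SE 0.244, adjusted p = 0.690, limma). That value was -1.52 with a pseudocount of 1 and -0.30 with one of 64. The other two, 1426334_a_at (112 ± 20.6 and 96.3 ± 5.20, SD, n = 3) and the dim 1456006_at (31.1 ± 14.9 and 29.1 ± 5.63), overlapped. The log2 fold change of 1456005_a_at was -0.61 without high-ROS replicate 1 and -0.33 without high-ROS replicate 3, and that of 1435448_at was -0.27 and -0.44 without the same arrays. Adjusted for the Gapdh ratio, 1456005_a_at had -0.35, 1435448_at -0.44 and 1435449_at -0.90.
Bcl2l11 upstream window, chr2:128125788-128126037, strand +: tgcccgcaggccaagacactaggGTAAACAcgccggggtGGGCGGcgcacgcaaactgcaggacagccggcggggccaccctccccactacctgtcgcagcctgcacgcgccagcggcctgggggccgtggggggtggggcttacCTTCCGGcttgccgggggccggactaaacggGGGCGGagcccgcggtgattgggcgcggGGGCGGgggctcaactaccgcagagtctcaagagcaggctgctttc
This is the first of 2 RefSeq windows of Bcl2l11 and is shown because it holds the forkhead motif GTAAACA, the kind of site bound by FoxO factors, which are known activators of Bim. The motif stands in 3.17% of all windows and in 2 of the 15 member windows, the other being 1 of 3 windows of Bbc3. The window also held 3 GC boxes and 1 ETS motif, and the second window of Bcl2l11 held 2 GC boxes only.

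**Figure D3:**
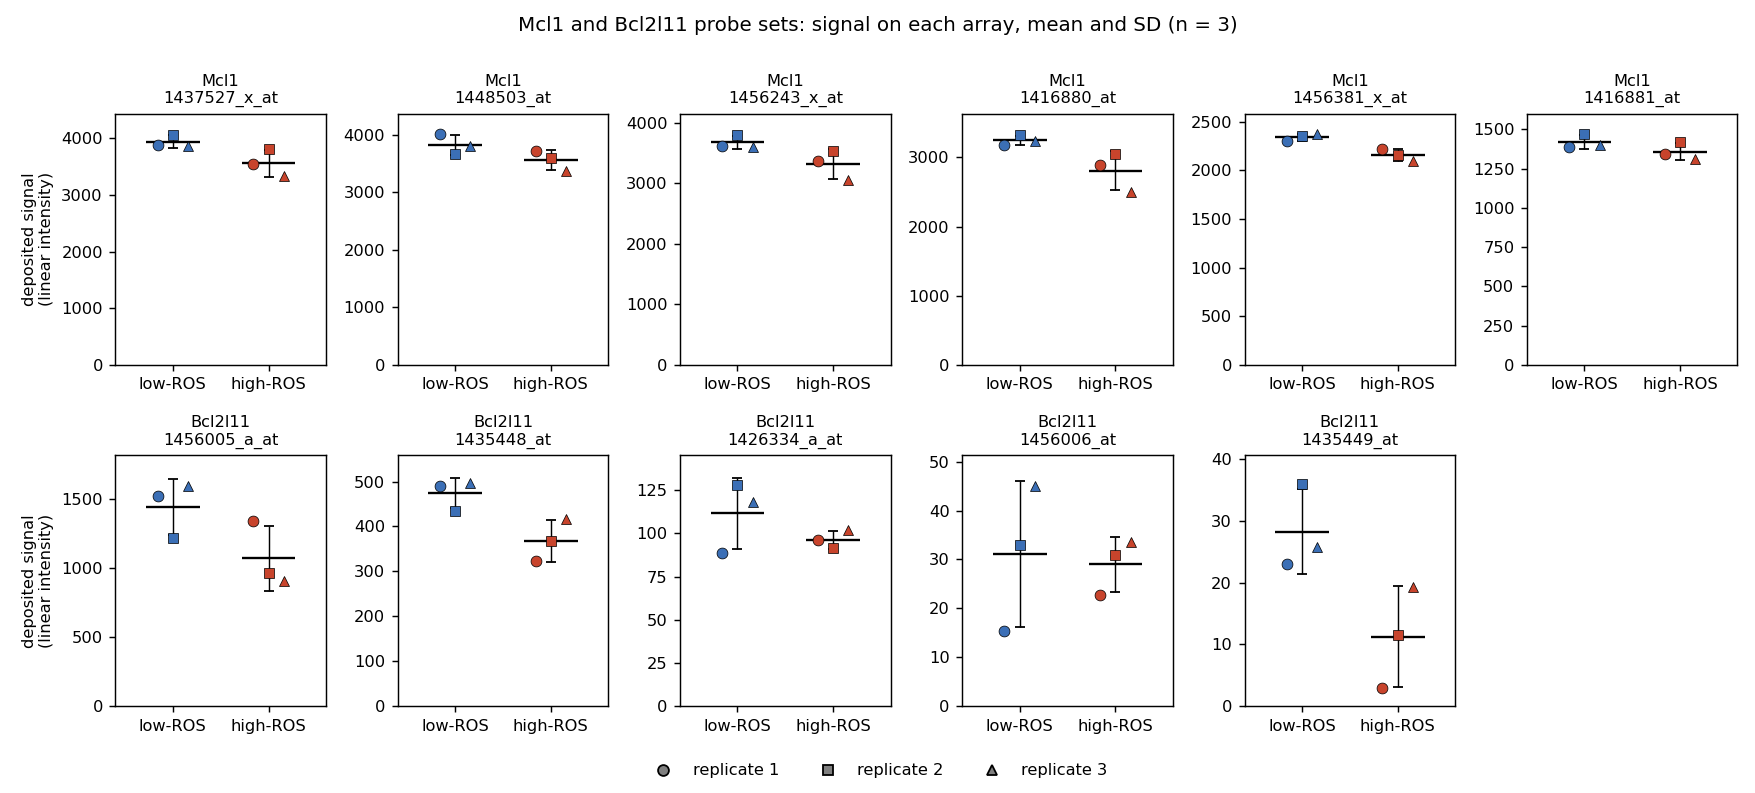
Deposited signal (vertical axis, linear intensity, from 0) of the 6 Mcl1 probe sets (top row) and the 5 Bcl2l11 probe sets (bottom row) on each array, low-ROS in blue and high-ROS in red, with the replicate number as the marker and the mean and SD as a line and bars. The Mcl1 groups differ by a small part of their height, with log2 fold changes between -0.21 and -0.06, and the Bcl2l11 groups are separate on 1435448_at and 1435449_at.

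The damage-induced BH3-only genes gave no difference beyond the spread between arrays. Pmaip1, a p53 target whose product binds Mcl1, had signals of 386, 470 and 337 in low-ROS and 457, 459 and 371 in high-ROS CMP on its single probe set, with overlapping groups (log2 fold change 0.11, SE 0.165, adjusted p = 0.913, limma). It was 0.0035 without low-ROS replicate 3 and 0.23 without low-ROS replicate 2. Adjusted for the Gapdh ratio, it was 0.21. Bbc3, another p53 target, was near background on its single probe set, between 16.4 and 33.1 on the 6 arrays (log2 fold change 0.00, 95% confidence interval -0.50 to 0.51). All 6 values lay below the median probe set, so the arrays say little about Bbc3.

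Bid, which links death receptors to mitochondria once it is cut by caspase 8, had 3 probe sets. The brightest, 1417045_at, had 185, 233 and 239 in low-ROS and 219.9, 302 and 206 in high-ROS CMP, with overlap (log2 fold change 0.13, SE 0.191). On 1448560_at, signals lay between 36.4 and 96.2 and overlapped too (log2 fold change 0.17, SE 0.294). With the Gapdh ratio as a covariate these values were 0.45 and 0.64. The third, 1447873_x_at, was separate between groups at 8.52, 8.68 and 16.9 against 27.6, 20.7 and 50.2, with every mean below the median probe set of 42.2 and a suffix for probes that may match other sequences (log2 fold change 0.80, SE 0.249, adjusted p = 0.685, limma). It was 1.42 with a pseudocount of 1, 0.35 with one of 64 and 0.51 with the Gapdh covariate. The Bid probe set of smallest p was thus its dimmest.

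Bad, a BH3-only protein held inactive by growth factor signalling, had 522, 394 and 381 in low-ROS and 416, 340.2 and 498 in high-ROS CMP on 1416582_a_at (log2 fold change -0.05, SE 0.181). Its other probe set, 1416583_at, had 224, 278 and 254 against 189.8, 226 and 193. High-ROS replicate 2 was slightly above low-ROS replicate 1, and the log2 fold change was -0.29 (SE 0.166, adjusted p = 0.754, limma). With the Gapdh ratio as a covariate the values of the Bad probe sets were -0.40 and -0.16.

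Bak1, the effector measured here, overlapped between groups on both probe sets. The brighter, 1425716_s_at, whose suffix marks probes shared with another transcript, had 228, 289 and 236 in low-ROS and 197, 255 and 192 in high-ROS CMP (log2 fold change -0.21, SE 0.178, adjusted p = 0.827, limma). The other, 1418991_at, had 140.4, 218 and 219.8 against 244, 222 and 130.1 (log2 fold change 0.02, SE 0.253). The Bak1 probe sets thus differed in sign, both within their spread. With the Gapdh ratio as a covariate they had -0.03 and 0.51, and 1425716_s_at ranged from -0.33 (without high-ROS replicate 2) to -0.11 (without low-ROS replicate 2).

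The genes whose pattern over the 6 arrays was most like those of the 2 member probe sets of smallest p were found among 6281 genes with a mean signal above 200. For Bcl2 1457687_at they were Jagn1, an endoplasmic reticulum protein (Pearson correlation of log2 values 0.989), Irf8, a transcription factor of monocytes and dendritic cells (0.986), and Trim28, a transcriptional corepressor (0.977). For Bid 1447873_x_at they were Dpy19l1 (0.995), Sav1, a Hippo pathway adaptor (0.993) and Macir (0.987). These are descriptions over 6 arrays, which share the 2 groups, and were picked as the highest of many.

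Other genes of the pathway were read from 6 lists with 117 genes, 106 of them measured, each by its brightest probe set. No gene of any list passed the threshold, where 0.0605% of all genes did. At an unadjusted p under 0.05, 6 were higher (all genes: 4.42%) and 1 was lower (3.34%). Over all 18193 genes, 9820 had log2 fold changes above 0 and 8373 below. Of 11 measured genes among 16 other members of the Bcl2 family, 5 had log2 fold changes above 0 and 6 below, their median was -0.01, and 0 had an unadjusted p under 0.05. Those of smallest p were Bcl2l12 (0.23, SE 0.203), Bcl2l14 (-0.19, SE 0.185) and Hrk, a BH3-only gene (0.18, SE 0.195), and Bcl2l14 and Hrk were near background.

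Among 20 of 23 genes of the apoptosome, the caspases and their inhibitors, 10 had log2 fold changes above 0 and 10 below, with a median of 0.03. Parp1, a DNA repair enzyme that caspases cut, had 609, 544 and 587 in low-ROS and 786, 789 and 853 in high-ROS CMP. The groups were far apart beside their spread (log2 fold change 0.47, SE 0.118, adjusted p = 0.426, limma), while its 4 probe sets ranged from -0.01 to 0.47. Log2 fold changes were 0.30 (SE 0.140) for Casp1, the caspase of inflammasomes, and -0.26 (SE 0.162) for Casp9, the caspase of the apoptosome, and for Casp9 the other two probe sets had the opposite sign.

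Of 14 of 15 genes of death receptors and their adaptors, 4 had log2 fold changes above 0 and 10 below (median -0.05). Mlkl, the executor of necroptosis, had 81.1, 69.0 and 86.7 in low-ROS and 99.9, 131 and 149 in high-ROS CMP without overlap (log2 fold change 0.58, SE 0.213, adjusted p = 0.593, limma). The receptors of tumour necrosis factor had log2 fold changes of -0.27 (Tnfrsf1b, SE 0.125) and 0.27 (Tnfrsf1a, SE 0.166). Of the 14 mitochondrial partners, 7 had log2 fold changes above 0 and 7 below (median 0.01), and 3 were higher at an unadjusted p under 0.05 (all genes: 4.42%). These were the adenine nucleotide carriers Slc25a5 (0.22, SE 0.0876; 8 of 8 probe sets positive) and Slc25a4 (0.30, SE 0.130; 4 of 4), which are similar in sequence, and Mtch2, a receptor for truncated Bid (0.42, SE 0.168), of whose 7 probe sets 4 were positive.

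Of 27 of 29 regulators of the members' transcription and turnover, 6 had log2 fold changes above 0 and 21 below, with a median of -0.12 against 0.02 over all genes. Over all 18193 genes, 8373 were below 0. How far the scaling of the arrays moved the values of these regulators was not analysed here. Akt1, a kinase that inactivates Bad and FoxO factors, had the smallest p, at 0.49 (SE 0.164, adjusted p = 0.570, limma) on the brightest probe set and with the opposite sign on its other 3. Foxo4 had -0.43 (SE 0.204) and 0.04 on its other probe set, and Pim1, a survival kinase, -0.25 (SE 0.126). Of the 20 p53 targets outside the family, 8 had log2 fold changes above 0 and 12 below (median -0.08). Cdkn1a, the p21 cell cycle inhibitor, had -0.71 (SE 0.253), Perp, a membrane protein, -0.44 (SE 0.204) and Pidd1, which activates caspase 2, 0.46 (SE 0.221). The groups overlapped for Cdkn1a, Perp and Pidd1, and the mean Pidd1 signal of 37.4 was below the median probe set of 42.25.

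**Figure D4:**
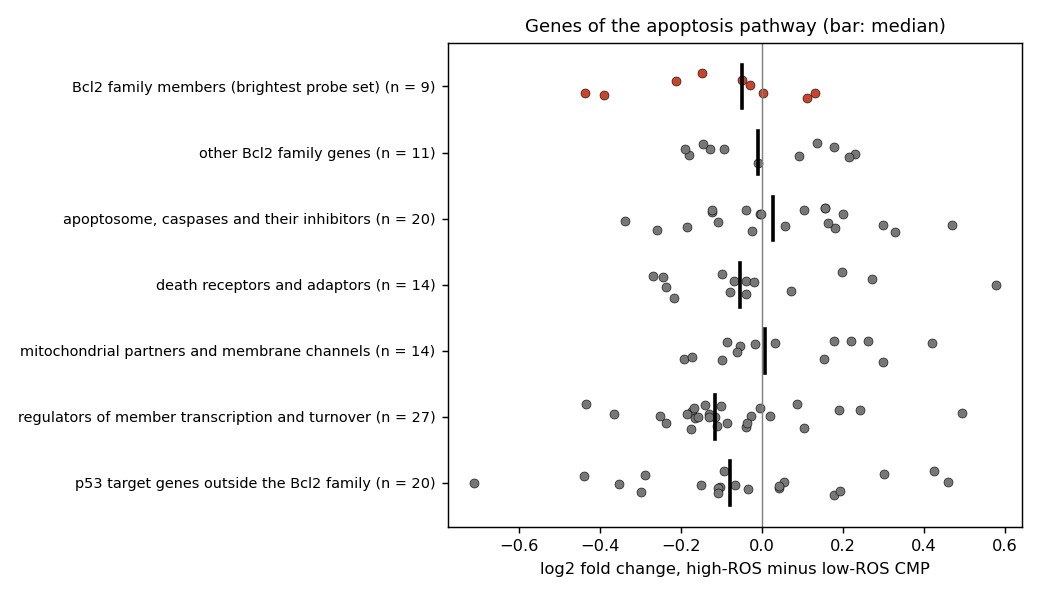
Log2 fold change (horizontal axis, high-ROS minus low-ROS CMP) of the 9 members and of the measured genes of 6 apoptosis lists, 1 point per gene from its brightest probe set, with the median as a bar; the vertical scatter within a row has no meaning. Medians lie between -0.12, for the regulators, and 0.03, for the apoptosome and caspases, and no point passed the threshold.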

How the data were processed

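Per the labels' protocols, RNA of sorted CMP was amplified with the NuGen Ovation kit and biotin-labelled. The deposited values are 1 linear intensity per probe set and array, with no detection call, and their summary and scaling by the authors are not given in the sources used here. Their lowest value is 0.8. Depth does not apply to arrays, and the number of arrays limits the precision. Groups were taken from the sample titles.

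Of 45101 probe sets, 64 were controls and 45037 were tested; 34945 had 1 gene symbol in the platform annotation, 932 several and 9160 were unlisted. Values were taken as log2(signal + 16), which shrinks fold changes of dim probe sets, without further normalization. High-ROS and low-ROS CMP (3 arrays each) were compared with limma 3.58.1 in R 4.3.3 (lmFit, eBayes with a mean-variance trend, 2-sided, 4 residual and 10.7 total degrees of freedom), with Benjamini-Hochberg adjustment over all probe sets and a threshold of 0.05. A second fit used the probe set with the highest mean for each of 18193 genes. The steps were tested on simulated data with 200 of 45037 probe sets changed in each of 10 simulations; 3.04% of the calls were false. The smallest p that exact permutation of 6 arrays allows is 0.1.

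Named were all members with every probe set, the 3 genes of smallest p in each list, and the 3 genes most like each of the 2 member probe sets of smallest p. The members, the lists and the alternatives were chosen with earlier results of these data known. The ratios between Bcl2 probe sets were added after the values were seen, and only for the 3 whose groups did not overlap. Alternatives were no variance trend, brighter probe sets only, quantile and trimmed-mean scaling, pseudocounts of 1 and 64, array weights, a block for the replicate number, the Gapdh ratio as a covariate, leaving out arrays and, for genes, the mean of all probe sets. Promoter windows are RefSeq's (GRCm38.p6); that of Pmaip1 is not analysed here. Plots were made in Python 3.11.15 (matplotlib 3.10.9).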

Additional observations from a re-analysis of the deposited data

How the results depend on the processing

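In each of the 16 alternatives, 0 member probe sets, 0 member genes and 0 genes of the 6 lists passed the threshold. The alternative with only the brighter features tested 24 of the 29 probe sets, 8 of the 9 genes and 89 of the 106 list genes. The gene counts were 0 too when all probe sets of a gene were averaged. The 459 member values under these alternatives had adjusted p from 0.137 upward (limma). Of them, 39 had the other sign, on 11 probe sets, and 18 probe sets kept their sign under every alternative that tested them; the cause was not tested.

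The reversed values of Bcl2 1422938_at were 0.012 with quantile normalization, 0.0023 with trimmed-mean scaling, 0.21 with array weights, 0.24 with the Gapdh ratio as a covariate and 0.47 without both end arrays of the first principal component (low-ROS replicate 1 and high-ROS replicate 3). For Bcl2 1443837_x_at, they were 0.21, 0.094 and 0.45 under the last 3 settings. Bcl2l1 1426050_at had -0.0039 with a pseudocount of 64, -0.22 with array weights and -0.46 without both end arrays. Bcl2l11 1456006_at had 0.012 with trimmed-mean scaling, 0.011 with a pseudocount of 1 and 0.17 with the Gapdh covariate. Bbc3 1423315_at had -0.000065 with a pseudocount of 64 and -0.28 with the Gapdh covariate, under which Bcl2l1 1426191_a_at had 0.065 and 1420888_at 0.014.

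Leaving out each array in turn gave ranges of -0.22 to 0.28 for Bcl2 1422938_at, -0.25 to 0.24 for 1443837_x_at, -0.30 to 0.30 for Bcl2l1 1426050_at, -0.29 to 0.19 for Bcl2l11 1456006_at, -0.12 to 0.15 for Bbc3 1423315_at, -0.028 to 0.23 for Bid 1417045_at, -0.088 to 0.41 for Bid 1448560_at, -0.18 to 0.090 for Bad 1416582_a_at and -0.17 to 0.28 for Bak1 1418991_at.

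With the replicate block, 0 member probe sets passed and 5 of all probe sets were lower and 0 higher, against 9 and 1 without it. At an unadjusted p under 0.05, 1616 were higher and 1890 lower with the block, against 1526 and 1610 without it. Deviations of same-numbered arrays correlated at 0.138, 0.102 and -0.0189. For replicates 1 and 2 these were the best matches, whereas low-ROS replicate 3 correlated best with high-ROS replicate 2 (0.0915). Deviations were centred within groups of 3, which ties the correlations together, so they cannot decide whether the numbers pair. The main fit used no pairing. Counts over all probe sets ranged from 0 (no variance trend) to 10 higher and 23 lower (array weights).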
